A study of Rattus norvegicus with 10 samples.

Results

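The lysosome genes of rat cells labelled as nucleus pulposus were followed after knockdown of Bnip3. They cover the vacuolar proton pump (V-ATPase), the cathepsins, the glycosidases, sulfatases and lipid hydrolases of the lumen, and the proteins of the lysosomal membrane. The enzymes that mature the hydrolases and the transcription factors of the pathway are also included. Members were all probesets whose gene symbol in the platform annotation begins with Atp6v0, Atp6v1, Atp6ap1 or Atp6ap2, is a cathepsin (Cts and a letter), or is on a list of 34 further lysosomal symbols. The rule found 71 probesets, each for a different gene, among 23188 probesets that are not controls. The listed symbols Gnptab, Ids, Naglu and Sgsh matched no probeset and are not analysed here.

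The cells were labelled as nucleus pulposus, the gelatinous core of the intervertebral disc. They came from male Sprague Dawley rats of 300 g, aged 3 to 4 months. The control group (ShCtrl, 5 arrays, numbered 1 to 5) received a lentivirus with a control hairpin in the vector pLKO.1. The knockdown group (ShBNIP3, 5 arrays, numbered 6 to 10) received lentiviral particles against Bnip3, a mitophagy receptor of the outer mitochondrial membrane, and RNA of both groups was taken 4 days after transduction. The labels give no separate cultures or animals for the arrays of a group, no count of hairpin sequences, and a protocol text that also speaks of mouse tissue, so the p-values reflect only how far the arrays of a group differ, possibly for technical reasons.

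Lysosomes digest matrix, membranes and organelles that reach them by endocytosis or autophagy. The V-ATPase, a membrane sector (V0) that carries protons and a cytosolic sector (V1) that splits ATP, acidifies the lumen so that the hydrolases can work. In the disc the load includes aggrecan, whose chondroitin and keratan sulfate chains are taken apart by sulfatases and glycosidases in turn.

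All levels are on the authors' normalized log2 scale, differences are ShBNIP3 minus ShCtrl on that scale, and "rose" and "fell" mean an adjusted p under 0.05 in limma over all 23188 probesets. Bnip3 itself was 14.29, 14.29, 13.94, 15.97 and 14.54 on ShCtrl arrays 1 to 5 and 11.14, 11.26, 10.59, 11.31 and 12.68 on ShBNIP3 arrays 6 to 10. The groups did not overlap, and the difference of -3.21 (SE 0.40, limma adjusted p = 0.00020) had an exact two-sided permutation p of 0.0079, the smallest that 5 against 5 allows. Array medians lay between 6.18 and 6.22. ShCtrl array 4 and ShBNIP3 array 10 correlated least with the rest of their groups, at a mean Pearson r of 0.983 and 0.986, where the other 8 reached 0.992.

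The tissue label was checked against marker genes. They do not settle which disc cells these are, so the identity rests on the label. Of 10 nucleus pulposus markers measured, 6 were at background on every array (Tbxt, Noto, Shh, Krt8, Krt18 and Krt19), meaning that they were dimmer than the 95th percentile of that array's antigenomic probesets, which match no rat sequence. Acan, Col2a1, Slc2a1 and Cd24 were above it, and of the 10 Col2a1 fell and 0 rose. Of 9 annulus fibrosus and fibroblast markers 8 were above background, 1 rose (Postn, by 1.28) and 3 fell (Col1a1, Col1a2 and Thy1, by 0.40, 0.37 and 0.77), where 7.61% of all probesets rose and 7.87% fell. Of 7 smooth muscle and pericyte markers 1 rose (Mcam, by 1.39) and 1 fell (Des, by 2.53), and 2 were at background. All 8 endothelial and all 5 erythroid markers measured were at background, as were 5 of 8 osteoclast markers, of which Nfatc1 fell and 0 rose. Of 15 macrophage and leukocyte markers 13 were at background, Ptprc, Csf1r and Adgre1 among them, 3 rose and 0 fell, and the median difference was 0.08. The mean level of the list was 4.64 to 4.90 on the ShCtrl arrays and 4.88 to 5.10 on the ShBNIP3 arrays. Cd68, a lysosomal membrane protein used as a macrophage marker, rose by 1.50, Cd14 by 1.12 and Cd53, at background in both groups, by 0.52. The part of these markers in the results below was not tested.

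Lysosomal genes moved in both directions. V-ATPase genes and several glycosidases rose, mostly by less than 2-fold, while the sulfatases Galns and Arsa, the sulfatase-modifying Sumf1 and Sumf2, and the acid lipase Lipa fell, by up to 6.90-fold. Of the 71 members 18 rose (25.4%) and 9 fell (12.7%), against 7.61% up and 7.87% down among all probesets, and 44 were not called. Their median difference was 0.17, against 0.02 over all probesets.

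By mean level over all arrays, 54 of the 71 members were among the brighter 50% of probesets. In a fit restricted to these probesets, 19 of 54 members rose (35.2%) and 10 fell (18.5%), against 17.0% up and 16.8% down among those probesets. The share that rose was thus above this background and the share that fell was near it. With a change of at least 2-fold 1 member rose (1.41%, against 1.44% of all probesets) and 4 fell (5.63%, against 2.74%). ShBNIP3 lay above ShCtrl without overlap for 16 members (22.5%, against 6.60%) and below it for 10 (14.1%, against 6.29%).

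With those 2 arrays left out, the same 27 members were called, 18 up and 9 down, where 19.9% of all probesets were called (9.84% up and 10.1% down).

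**Figure D1:**
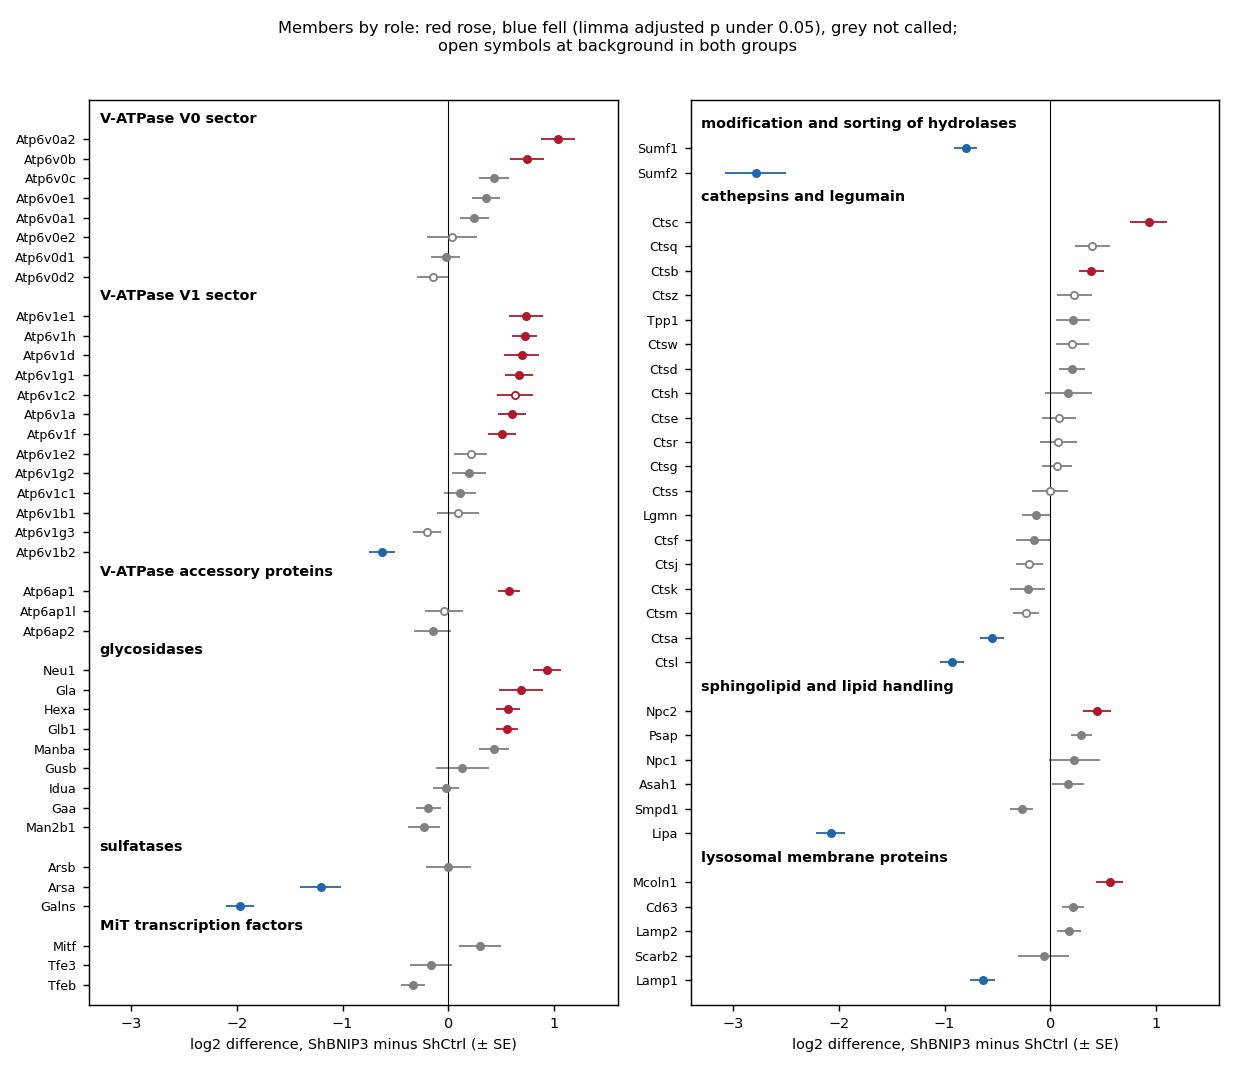
Log2 difference (ShBNIP3 minus ShCtrl, horizontal axis, with SE) of each of the 71 members, grouped by role. Red points rose, blue points fell, grey points were not called, and open points are at background in both groups. The V-ATPase and glycosidase points lean to the right, up to 1.04 for Atp6v0a2, and the points farthest to the left are Sumf2 at -2.79, Lipa at -2.08 and Galns at -1.98.

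Tfeb, Tfe3 and Mitf, the MiT transcription factors that switch on lysosomal genes, were not called. Tfeb was 7.58, 7.45, 7.88, 7.70 and 7.71 on ShCtrl arrays 1 to 5 and 7.26, 7.35, 7.43, 7.19 and 7.43 on ShBNIP3 arrays 6 to 10. All ShBNIP3 arrays were below all ShCtrl arrays, but the difference of -0.33 (SE 0.12) had a limma adjusted p of 0.074, and of 0.084 without arrays 4 and 10. It passed only in the fit restricted to the brighter 50% of probesets.

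Tfe3 was 12.36, 12.61, 12.20, 11.34 and 12.23 in ShCtrl and 11.96, 12.08, 12.00, 12.11 and 11.78 in ShBNIP3, with ShCtrl array 4 the lowest of all 10. Its difference was -0.16 (SE 0.20, limma adjusted p = 0.69), and -0.37 without that array (limma adjusted p = 0.073). Mitf was 11.80, 12.15, 12.05, 12.49 and 12.62 in ShCtrl and 12.14, 12.64, 12.80, 12.88 and 12.12 in ShBNIP3, overlapping groups with a difference of 0.30 (SE 0.20, limma adjusted p = 0.39). These factors are controlled largely by phosphorylation and entry into the nucleus, which an RNA array does not see.

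MiT factors bind the CLEAR element, a short palindrome around the E-box CACGTG, so the promoters of the members were searched for it. RefSeq promoters (assembly GRCr8) were available for 58 of the 71 members, and the search used the 250 bases before the annotated start. The palindrome TCACGTGA, which reads the same on both strands and contains CACGTG, was in 4 of the 58 (6.90%) and in 0.657% of all 33469 promoters of the table, or 1.08% of those of genes on the array. The shorter CACGTG was in 9 of 58 (15.5%), in 5.59% of all promoters and in 6.92% of those of array genes. The members with the palindrome were Lamp1 and Sumf1, which fell, and Atp6v0d1 and Ctsd, which were not called. None of the 15 members that rose and had a promoter held it, while Glb1 and Mcoln1 among them held the shorter CACGTG. Cd63, Ctsf and Gaa, which were not called, also held only the shorter CACGTG. Of 19 V-ATPase members with a promoter, 1 held CACGTG (5.26%), and this was Atp6v0d1.

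The windows around these motifs are shown because they set members that fell, that were not called and that rose side by side with the same core. Capitals mark CACGTG, and each window is written 5′ to 3′ on the strand of the gene. Lamp1 holds CACGTG 5 times, and its windows at 38 and 65 bases before the start are given. Ctsd holds it 2 times, and the window at 10 bases is given. The windows of Cd63, Ctsf and Gaa are not shown. A match is only a run of letters, and nothing here measured binding.
Lamp1, chr16:83075079-83075118, minus strand, fell: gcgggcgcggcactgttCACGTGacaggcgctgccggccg
Lamp1, chr16:83075106-83075145, minus strand, fell: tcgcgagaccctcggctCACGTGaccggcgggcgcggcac
Sumf1, chr4:142716717-142716756, minus strand, fell: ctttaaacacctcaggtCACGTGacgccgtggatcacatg
Atp6v0d1, chr19:50357278-50357317, minus strand, not called: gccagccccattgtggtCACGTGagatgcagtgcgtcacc
Ctsd, chr1:206968822-206968848, minus strand, not called: gcccctcgcccgcgtctCACGTGaccc
Glb1, chr8:122963601-122963640, plus strand, rose: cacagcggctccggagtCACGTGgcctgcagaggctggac
Mcoln1, chr12:6358219-6358257, plus strand, rose: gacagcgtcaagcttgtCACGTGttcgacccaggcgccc

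V-ATPase genes rose in part. Of the 24 measured, 10 rose and 1 fell (41.7% up, against 7.61% of all probesets), with a median difference of 0.30 and 18 above 0. Over all 23188 probesets the median difference was 0.02, and 12448 were above 0. Of the 24 genes 7 were at background in both groups. The other 17 had a median of 0.51, and 14 of them were above 0. Without arrays 4 and 10, again 10 of the 24 genes rose and 1 fell. The median of the 24 genes, relative to their mean over the ShCtrl arrays, was 0.23, 0.33, 0.56, 0.46 and 0.27 on ShBNIP3 arrays 6 to 10 and between -0.03 and 0.07 on the ShCtrl arrays. All 5 ShBNIP3 arrays were therefore above all 5 ShCtrl arrays. The centring on ShCtrl holds the medians of those arrays near 0, so this separation restates the gene differences counted above.

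In the V1 sector 7 of 13 genes rose and 1 fell (53.8% and 7.69%, against 7.61% and 7.87% of all probesets). Atp6v1h, the regulatory subunit H, was 10.28, 10.32, 10.38, 10.37 and 10.10 on the ShCtrl arrays and 10.88, 10.91, 11.16, 10.90 and 11.21 on the ShBNIP3 arrays. The groups were apart by more than either varied, with a difference of 0.72 (SE 0.12, limma adjusted p = 0.0012). The catalytic subunit A (Atp6v1a) rose by 0.60, the stalk subunits E1 (Atp6v1e1) and G1 (Atp6v1g1) by 0.73 and 0.67, and the central shaft subunits D (Atp6v1d) and F (Atp6v1f) by 0.69 and 0.51. Atp6v1f passed with a limma adjusted p of 0.021 but overlapped between the groups, and its call was lost when any of 4 arrays was left out.

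Atp6v1b2 went the other way. It encodes the B2 subunit, which alternates with A in the ring that splits ATP, and was 12.10, 12.33, 12.25, 12.52 and 12.30 in ShCtrl and 11.50, 11.60, 11.69, 11.63 and 11.93 in ShBNIP3. Every ShBNIP3 array was below every ShCtrl array, a fall of 1.55-fold (log2 -0.63, SE 0.12, limma adjusted p = 0.0038). The C1 subunit gene Atp6v1c1 differed by 0.11 (limma adjusted p = 0.73) and Atp6v1g2, an isoform known from neurons, by 0.19 (limma adjusted p = 0.51). The isoform genes Atp6v1b1, Atp6v1e2 and Atp6v1g3 were at background on all arrays and not called. Atp6v1c2 was called (0.63, limma adjusted p = 0.023) while at background in both groups, so no fold is given, and the call was lost when any of 3 arrays was left out.

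In the V0 sector 2 of 8 genes rose (25%, against 7.61% of all probesets) and 0 fell. At an unadjusted limma p under 0.05 the counts were 4 and 0, where 3250 and 2938 of all 23188 probesets passed. Atp6v0a2, the a2 isoform of the subunit that forms the proton path, was 10.04, 10.06, 10.28, 9.37 and 10.11 in ShCtrl and 11.08, 10.88, 10.95, 11.19 and 10.94 in ShBNIP3. The lowest ShBNIP3 array was above the highest ShCtrl array, a 2.05-fold difference (log2 1.04, SE 0.16, limma adjusted p = 0.00091). Leaving out ShCtrl array 4, the lowest of its group, gave 0.89. Atp6v0b, a subunit of the proton-binding ring, was 9.40, 9.38, 8.83, 9.81 and 9.22 in ShCtrl and 10.15, 9.99, 10.04, 10.19 and 9.98 in ShBNIP3, and rose by 0.75 (SE 0.16, limma adjusted p = 0.0071).

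The other ring subunit gene, Atp6v0c, differed by 0.43 with a limma adjusted p of 0.058. Of 6 other fits that did not leave out a single array, 4 called it. These were quantile normalization, a trended and robust variance, array weights and the brighter 50% of probesets. Of the fits with 1 array left out, 8 did not call it, with a limma adjusted p of up to 0.14. Atp6v0a1 and Atp6v0e1 differed by 0.24 and 0.36 and Atp6v0d1, the d1 subunit that couples V0 to the shaft of V1, by -0.03, and none of them passed. Atp6v0d2, the d2 isoform known from osteoclasts, and Atp6v0e2 were at background. The a3 isoform gene is named Tcirg1 and so falls outside the rule. It rose 2.05-fold, as Atp6v0a2 did (log2 1.03, SE 0.23, limma adjusted p = 0.0084), and was 9.33, 9.55, 9.47, 8.55 and 9.30 in ShCtrl and 10.12, 10.18, 10.55, 10.82 and 9.69 in ShBNIP3. Its groups did not overlap.

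Of the accessory proteins 1 of 3 rose, a single gene (33.3%, against 7.61% of all probesets), and 0 fell. Atp6ap1 (Ac45), which helps assemble the V0 sector, was 15.42, 15.27, 15.31, 15.38 and 15.44 in ShCtrl and 15.83, 15.96, 15.94, 16.07 and 15.87 in ShBNIP3. The SD within each group was at most 0.09 and the difference 0.57 (SE 0.10, limma adjusted p = 0.0022). Atp6ap2, the (pro)renin receptor, differed by -0.15 (limma adjusted p = 0.66), and Atp6ap1l was at background. Among 7 measured genes for assembly and regulation of the pump, Tcirg1 included, 1 rose and 0 fell, and that gene was Tcirg1. At an unadjusted limma p under 0.05 the counts were 2 and 0. All 7 were above background. The share that rose was 14.3%, against 7.61% of all probesets and 17.0% of the brighter 50% in their own fit. It is not read as an excess.

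**Figure D2:**
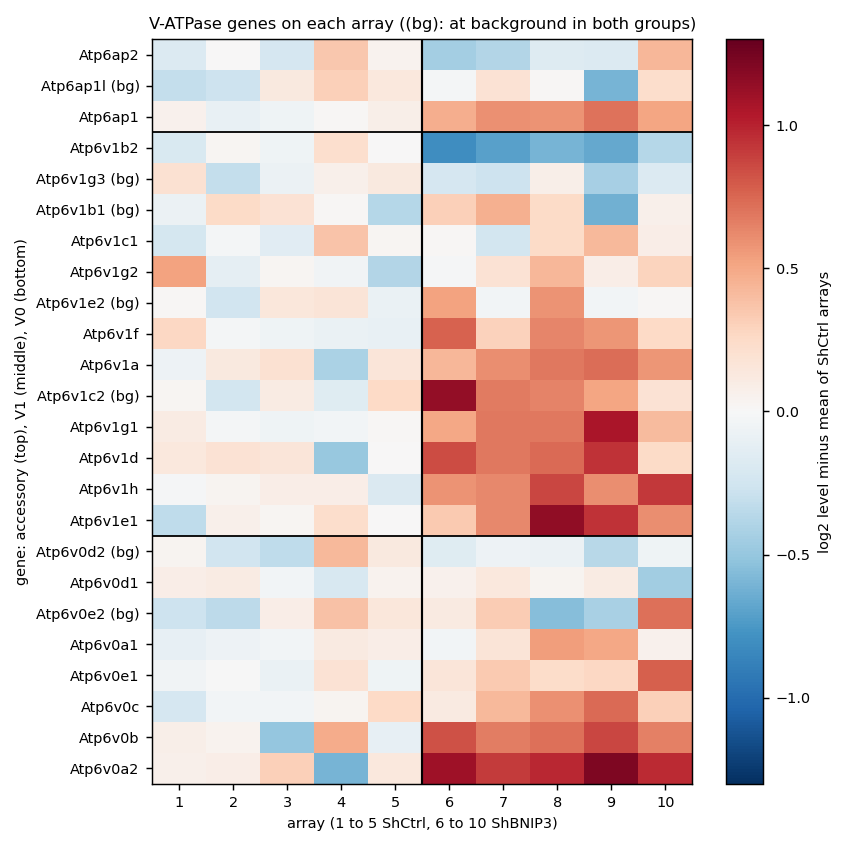
Level of each V-ATPase gene (rows, accessory proteins above, V1 in the middle, V0 below) on each array (columns), as log2 level minus the mean of the ShCtrl arrays. ShBNIP3 columns are mostly red in the rows of Atp6v0a2, Atp6v0b, Atp6v1a, Atp6v1h, Atp6v1g1 and Atp6ap1, and blue in the row of Atp6v1b2, which fell by 0.63.

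Sumf2, a modifier of sulfatases, had the largest difference of the 71 members, and 2 sulfatases fell with it. Sulfatases cut sulfate from glycosaminoglycans and sulfolipids, and each must have a cysteine in its active site turned into formylglycine. Sumf1 encodes the enzyme that does this in the endoplasmic reticulum, and Sumf2 its paralog, which binds it and lacks the activity.

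Sumf2 was 10.63, 10.68, 10.70, 9.39 and 10.37 on ShCtrl arrays 1 to 5 and 8.02, 7.30, 7.80, 7.93 and 6.77 on ShBNIP3 arrays 6 to 10. The closest arrays of the groups lay 1.37 apart, although ShCtrl array 4 deviated by -1.21 from the rest of its group. The fall was 6.90-fold (log2 -2.79, SE 0.29, limma adjusted p = 4.39e-05), and log2 -2.83 without arrays 4 and 10. On ShBNIP3 array 10 the level of 6.77 was near that array's background of 6.68, and differences near background understate change. Sumf1 was 9.80, 9.89, 9.59, 9.81 and 9.97 in ShCtrl and 8.85, 8.97, 9.07, 9.11 and 9.06 in ShBNIP3, again with no overlap. It fell 1.74-fold (log2 -0.80, SE 0.11, limma adjusted p = 0.00042).

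Galns, which removes sulfate from keratan sulfate and from chondroitin 6-sulfate, was 11.99, 11.97, 11.60, 11.49 and 12.00 in ShCtrl and 9.87, 9.94, 9.90, 9.70 and 9.78 in ShBNIP3. The ShBNIP3 arrays were tightly grouped (9.84 ± 0.10, SD, n = 5) and far below ShCtrl (11.81 ± 0.25, SD, n = 5). The fall was 3.93-fold (log2 -1.98, SE 0.13, limma adjusted p = 1.55e-06). Arsa, which removes sulfate from the myelin-type lipid sulfatide, was 11.71, 11.71, 11.29, 10.66 and 11.53 in ShCtrl and 10.34, 10.04, 10.27, 10.30 and 9.90 in ShBNIP3. It fell 2.31-fold (log2 -1.21, SE 0.19, limma adjusted p = 0.0011), with ShCtrl array 4 the closest to the ShBNIP3 range, and the log2 difference was -1.32 without arrays 4 and 10.

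Arsb, the sulfatase for dermatan sulfate and chondroitin 4-sulfate, was 12.11, 12.05, 12.42, 11.45 and 12.30 in ShCtrl and 11.87, 11.99, 12.46, 12.43 and 11.57 in ShBNIP3. The groups covered the same range, with a difference of -0.00082 (SE 0.21, limma adjusted p = 0.999). Of the 3 sulfatases among the members 2 thus fell (66.7%, against 7.87% of all probesets) and 0 rose. The sulfatases Arsk and Arsg, outside the rule, differed by -0.11 and 0.33 and were not called (limma adjusted p = 0.65 and 0.075). Arsg was at background in both groups.

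**Figure D3:**
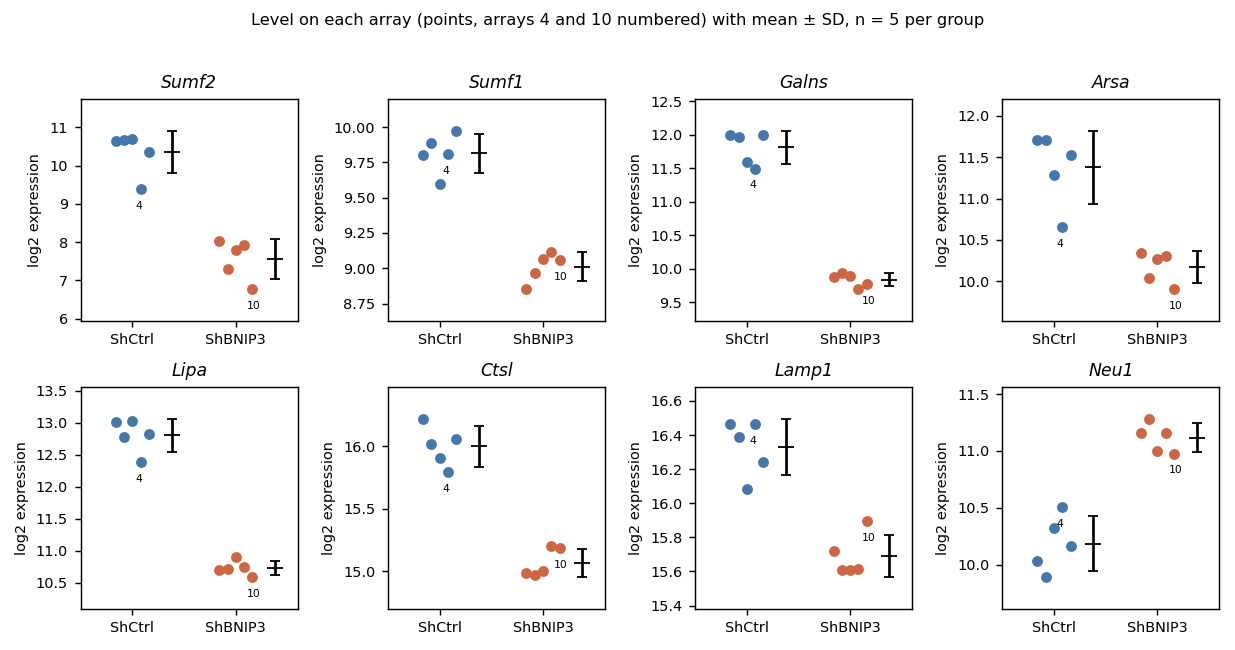
Log2 expression (vertical axes, own scale for each gene) of 8 members on each of the 10 arrays, with mean ± SD (n = 5 per group). In each panel all ShBNIP3 points (orange) lie on the same side of all ShCtrl points (blue), from Sumf2 with a fall of 2.79 to Neu1 with a rise of 0.93.

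The member glycosidases, which trim sugars from glycoproteins, glycolipids and glycosaminoglycans, rose or were not called. Of these 9 members 4 rose (44.4%, against 7.61% of all probesets) and 0 fell, with a median difference of 0.43. Among glycosidases outside the rule, Man2b2 fell by 1.13 and Hyal1 by 1.24, while Galc rose by 0.95 and Hyal2 by 0.52. The groups of Hyal1 and Hyal2 overlapped, and Hyal2 was not called without arrays 4 and 10 (limma adjusted p = 0.051). Fuca1 differed by 0.30 and was not called. Neu1, the lysosomal sialidase, was 10.04, 9.89, 10.33, 10.51 and 10.17 in ShCtrl and 11.16, 11.28, 11.00, 11.16 and 10.98 in ShBNIP3. The groups did not overlap, and the rise was 1.91-fold (log2 0.93, SE 0.13, limma adjusted p = 0.00053).

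Glb1, the acid beta-galactosidase, rose by 0.55 (SE 0.10, limma adjusted p = 0.0028), from 13.58 ± 0.10 to 14.13 ± 0.07 (SD, n = 5 each). Hexa, the alpha subunit of beta-hexosaminidase, rose by 0.56 (SE 0.11, limma adjusted p = 0.0047), from 14.54 ± 0.14 to 15.10 ± 0.12 (SD, n = 5 each). Both had no overlap between groups. Gla, the alpha-galactosidase A, overlapped and passed narrowly (0.68, SE 0.21, limma adjusted p = 0.042). The call was lost when any of 6 arrays was left out, and ShBNIP3 array 10 lay 0.94 above the rest of its group.

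The beta-mannosidase Manba differed by 0.43 (limma adjusted p = 0.066). Gusb, Idua, Gaa and Man2b1 differed by 0.13, -0.02, -0.19 and -0.23 and were not called. Gusb was low on ShCtrl array 4, and without that array its difference was -0.10. Neu1, Glb1 and Ctsa are known to form a complex in the lysosome in which Ctsa protects the other two, and Ctsa, the protective protein, fell. It was 16.19, 16.01, 15.73, 15.94 and 15.90 in ShCtrl and 15.36, 15.46, 15.34, 15.36 and 15.48 in ShBNIP3, a fall of 1.47-fold with no overlap (log2 -0.55, SE 0.11, limma adjusted p = 0.0052).

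Among the cathepsins, the proteases of the lumen, together with legumain (Lgmn) and tripeptidyl peptidase (Tpp1), 2 of 19 rose and 2 fell. That is 10.5% in each direction, near the 7.61% and 7.87% of all probesets, and 9 of the 19 were at background on every array. Ctsl, a cysteine endopeptidase, was 16.22, 16.02, 15.90, 15.79 and 16.06 in ShCtrl and 14.99, 14.97, 15.00, 15.20 and 15.18 in ShBNIP3. It fell 1.91-fold with no overlap (log2 -0.93, SE 0.12, limma adjusted p = 0.00020), and Ctsa was the other that fell.

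Ctsb, a related cysteine protease, was 17.88, 17.77, 17.84, 17.66 and 17.94 in ShCtrl and 18.16, 18.25, 18.31, 18.35 and 17.96 in ShBNIP3. The groups were just apart, at array 10, with a rise of 0.39 (SE 0.12, limma adjusted p = 0.038), or 1.31-fold. The call was lost when any of 8 arrays was left out. Ctsc, the dipeptidyl peptidase that activates serine proteases of leukocytes, was at background in ShCtrl and above it in ShBNIP3 only on array 10. It rose by 0.93 (SE 0.18, limma adjusted p = 0.0032), and no fold is given because the ShBNIP3 mean was under the background level of the ShCtrl arrays.

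The aspartic protease Ctsd, which is abundant in most cells, differed by 0.21 (limma adjusted p = 0.32), Ctsk, the collagen-cutting cathepsin of osteoclasts, by -0.22 (limma adjusted p = 0.46), and Ctsh and Ctsf by 0.17 and -0.16. Lgmn and Tpp1 differed by -0.13 and 0.22 and were not called. The members at background included the leukocyte proteases Ctss, Ctsg and Ctsw and the rodent placental cathepsins Ctsj, Ctsm, Ctsq and Ctsr, with Ctse and Ctsz. None of these 9 was called. Cystatins and other inhibitors of cathepsins and related proteases had 1 of 7 up and 1 down (14.3% each, a single gene, against 7.61% and 7.87% of all probesets), and 3 were at background. The secreted serpin Serpina3n rose by 2.64 (SE 0.53, limma adjusted p = 0.0046), or 6.22-fold, and cystatin B (Cstb) fell by 0.36 (limma adjusted p = 0.0498, and 0.058 without arrays 4 and 10).

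Of 6 genes for lipid breakdown and export 1 rose and 1 fell (16.7% each, against 7.61% and 7.87% of all probesets). Lipa, the acid lipase that frees cholesterol and fatty acids from lipoprotein lipids, was 13.01, 12.77, 13.02, 12.38 and 12.82 in ShCtrl and 10.69, 10.71, 10.90, 10.74 and 10.58 in ShBNIP3. The closest arrays of the groups lay 1.48 apart, and the fall was 4.22-fold (log2 -2.08, SE 0.14, limma adjusted p = 1.39e-06). It had the lowest p of the 71 members, and in fits with 1 array left out the difference stayed between -2.18 and -2.02.

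Npc2, the soluble protein that hands cholesterol to the membrane protein Npc1, rose by 0.44 (SE 0.13, limma adjusted p = 0.034), with overlapping groups, and lost its call when any of 7 arrays was left out. Npc1 itself differed by 0.23 (SE 0.24, limma adjusted p = 0.63), and ShCtrl array 4 and ShBNIP3 array 10 were the highest of their groups. The sphingolipid genes Asah1 (acid ceramidase), Smpd1 (acid sphingomyelinase) and Psap (the precursor of the saposins) differed by 0.17, -0.27 and 0.29 and were not called. Psap had no overlap between its groups, with a limma adjusted p of 0.073.

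Of 5 lysosomal membrane proteins 1 rose and 1 fell, a single gene in each direction (20%, against 7.61% and 7.87% of all probesets). Lamp1, a heavily glycosylated protein that lines the membrane, was 16.47, 16.39, 16.08, 16.46 and 16.24 in ShCtrl and 15.72, 15.61, 15.61, 15.62 and 15.89 in ShBNIP3. It fell 1.56-fold with no overlap (log2 -0.64, SE 0.12, limma adjusted p = 0.0029). Its relative Lamp2 differed by 0.18 (SE 0.11, limma adjusted p = 0.36). Mcoln1, the calcium channel TRPML1, was 13.46, 13.42, 13.04, 13.65 and 13.34 in ShCtrl and 13.81, 14.06, 13.86, 14.05 and 13.95 in ShBNIP3, and rose 1.48-fold (log2 0.56, SE 0.13, limma adjusted p = 0.0099). Cd63, a tetraspanin, differed by 0.22 with no overlap between groups but did not pass (limma adjusted p = 0.21). Scarb2, the receptor that carries beta-glucocerebrosidase to the lysosome, differed by -0.06, with ShBNIP3 array 10 far above the rest of its group.

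Other genes of the pathway, from lists that left out the members, are set against the same shares of all probesets, 7.61% up and 7.87% down. Of all 23188 probesets 11427 were at background in both groups, whereas most genes of these lists were above it. In the fit restricted to the brighter 50% of probesets, 17.0% rose and 16.8% fell. The lists were not counted in that fit, so a share near these values is not read as an excess. Of 27 further hydrolases and cofactors 6 rose (22.2%) and 3 fell (11.1%), the latter share near that of all probesets. Pcyox1, which breaks down prenylcysteine, fell 3.88-fold, the hyaluronidase Hyal1 2.37-fold and the mannosidase Man2b2 2.19-fold, while the 6 that rose did so by 0.52 to 1.05. Plbd1, 1 of those that rose, was at background in both groups. Without arrays 4 and 10, 6 rose and 5 fell (18.5%), where 9.84% of all probesets rose and 10.1% fell. The 6 were not the same genes, since Hyal2 was lost and Cpvl, at background in both groups, was gained. Of 26 membrane proteins and transporters 6 rose (23.1%), Tcirg1 among them, and 8 fell (30.8%). The amino acid transporter Slc36a1 fell 3.91-fold and Ostm1, the partner of the chloride transporter Clcn7, 2.95-fold, while the iron transporter Slc11a2 rose 2.06-fold with a limma adjusted p of 0.041 and overlapping groups.

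Genes that sort hydrolases to the lysosome had 3 of 16 up and 3 down (18.8% each). Sorl1, 1 of those that fell, was at background in both groups and was not called without arrays 4 and 10. In that fit 3 rose and 2 fell (18.8% and 12.5%, against 9.84% and 10.1% of all probesets). Sortilin (Sort1) rose by 0.92 and the cation-dependent mannose 6-phosphate receptor (M6pr) by 0.69, while Ap1m1, a subunit of the clathrin adaptor AP-1, fell by 0.66. Of 21 genes of the Ragulator, Rag GTPases and mTORC1, which sense nutrients on the lysosomal surface, 2 rose (9.52%, near the share of all probesets) and 4 fell (19.0%). Lamtor1, the Ragulator subunit that anchors the complex, was 9.56, 9.20, 9.36, 9.24 and 8.99 in ShCtrl and 8.25, 7.78, 7.93, 8.37 and 8.03 in ShBNIP3, a fall of 2.30-fold with no overlap (limma adjusted p = 0.00016). Sesn2 fell 2.94-fold with overlapping groups, since ShCtrl array 4 was below every other ShCtrl array, and Castor1 fell by 0.89.

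Of 25 genes for lysosome position, fusion and biogenesis 2 rose (8.00%, near the share of all probesets) and 5 fell (20%), among them the phosphoinositide phosphatase Fig4, Hps1 and the tethering subunit Vps33a, by 0.80, 0.77 and 0.75. Of 12 other targets of the MiT factors 0 rose and 3 fell (25.0%; limma unadjusted p under 0.05: 0 and 5), and without arrays 4 and 10 1 rose and 3 fell. The membrane glycoprotein Gpnmb fell 3.94-fold, from 14.65, 14.38, 14.31, 14.82 and 14.37 in ShCtrl to 12.05, 12.52, 12.65, 12.58 and 12.81 in ShBNIP3 (limma adjusted p = 6.12e-06). Its groups were far apart. Heme oxygenase 1 (Hmox1) fell by 1.33, or by 0.92 without arrays 4 and 10, and the autophagy adaptor Sqstm1 by 1.06.

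**Figure D4:**
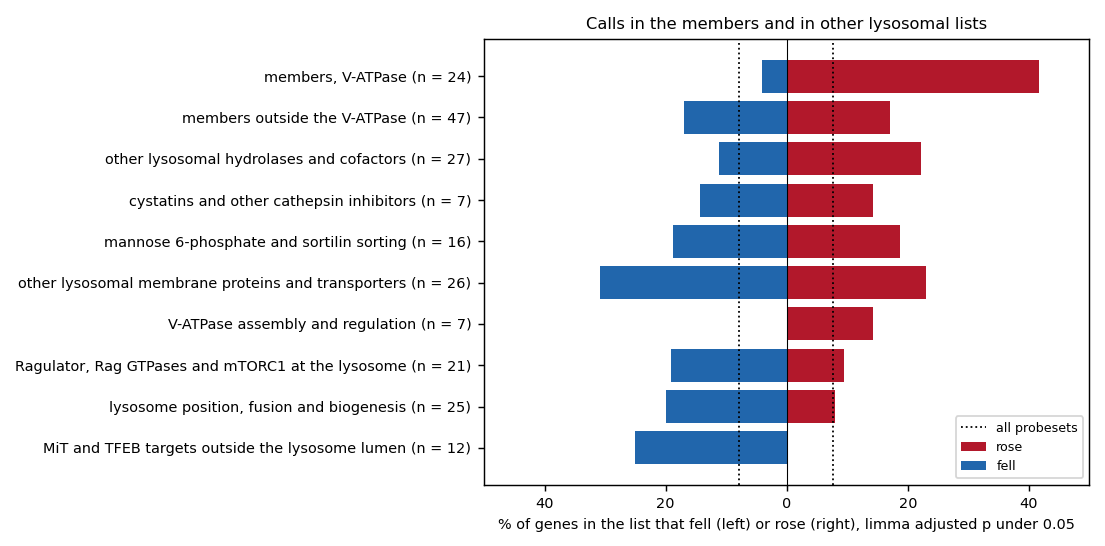
Share of genes (percent, horizontal axis) that rose (red, right) or fell (blue, left) among the V-ATPase members, the other members and 8 lists of other lysosomal genes, with the number measured. Dotted lines mark the shares over all probesets, 7.61% up and 7.87% down. Of those 23188 probesets 11427 were at background in both groups, so the lines lie low for lists of expressed genes. V-ATPase genes have the longest bar to the right, 41.7%, and membrane proteins and transporters the longest to the left.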

How the data were processed

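RNA of 10 samples (5 ShCtrl and 5 ShBNIP3, grouped by title) was hybridised to whole-transcript arrays. The deposited log2 expression values were normalized by the authors with sst-rma after labelling with the GeneChip WT Plus kit, per the labels, and the Transcriptome Analysis Console is named in the submitters' processing notes. The genome build of the array is not given in the sources used here. The table holds 24834 probesets, of which 1646 controls were left out. The other 23188 entered 1 fit of group without covariates in limma 3.58.1 (lmFit, eBayes; R 4.3.3), and p-values were adjusted over all of them (Benjamini-Hochberg, called under 0.05). Gene names are those of the platform annotation, and all 71 members matched the RefSeq gene table of GRCr8 under the same symbol. No member shares its 10 values with another probeset. Background is the 95th percentile of 23 antigenomic probesets on each array (6.50 to 6.78), and differences near it understate change. Levels of different probesets are not comparable, and the number of arrays limits the precision.

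The members and lists were chosen with earlier results of these data known, so no p was taken over the members alone and a list is described by its counts and median. Values per array are given for Lipa, Neu1, Ctsl, Tfeb, Tfe3 and Mitf, for called members changed by at least 2-fold, for the called member with the lowest p in each role, and for some members added after their values were seen. Up to 3 called genes with the largest difference are named in each other list. For a gene with several probesets the brightest was used. The alternatives were median centring, quantile normalization, a trended and robust variance, array weights, the brighter 50% of probesets, leaving out each array, and leaving out arrays 4 and 10.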

Additional observations from a re-analysis of the deposited data

Results flagged for a closer look

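In 12 of 144 groups of 5 arrays tested (71 members and Bnip3, each in ShCtrl and in ShBNIP3), 1 array lay far from the other 4 by Dixon's ratio, its gap to the nearest array over the whole range of the group, with a critical value of 0.71. Chance gives about 1 in 20 groups. ShCtrl array 4 was the array concerned in 5 of them and ShBNIP3 array 10 in 4, the arrays that also correlated least with their groups over all probesets.

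On ShCtrl array 4, Npc1 (ratio 0.883) was at 11.96 with the other ShCtrl arrays between 10.91 and 11.04, and Atp6v0e1 (0.721) was also high. Sumf2 (0.747) was low there, at 9.39 against 10.37 to 10.70, as were Atp6v0a2 (0.736) and Atp6v1d (0.727). On ShBNIP3 array 10, Scarb2 (0.802) was at 15.21 with the others between 14.02 and 14.26, and Atp6v0e1 (0.714) was also high, while Atp6v0d1 (0.829) and Ctsh (0.738) were low. The remaining arrays were ShCtrl array 1 for Atp6v1f (0.807), ShCtrl array 3 for Psap (0.718) and ShCtrl array 2 for Ctsj (0.765), which was at background in both groups.

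Of these genes Sumf2, Atp6v0a2, Atp6v1d and Atp6v1f were called with all arrays. Without arrays 4 and 10 their log2 differences were -2.83, 0.90, 0.68 and 0.55, and each was still called.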

How the results depend on the processing

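No paired analysis was possible because the ShCtrl and ShBNIP3 samples share no replicate numbers in their labels. Across 16 alternatives Bnip3 stayed called and negative, and the counts of all probesets changed, of members that rose and of members that fell stayed within 1.5 times of the values reported. Fits with 1 array left out gave 13 to 18 members up, 9 down in each, and a median member difference of 0.11 to 0.18. Of the 27 member calls 22 held in every alternative that tested them, the 9 falls among them. Atp6v1f, Atp6v1c2, Ctsb, Gla and Npc2 were lost only in some fits with 1 array left out. Quantile normalization added Atp6v0c, Manba and Psap, and the brighter 50% of probesets added these and Tfeb, while Atp6v1c2 and Ctsc were too dim to be tested there. The differences of the 27 called members and of Tfeb, Tfe3 and Mitf kept their sign in every alternative that tested them. Of the members not called, 11 changed sign in a fit with 1 array left out, 5 of them above background (Atp6v0d1, Idua, Gusb, Scarb2 and Arsb). Centring the arrays moved no call. Differences of the 16 members at background in both groups are not measured sizes. Atp6v1c2 is one of them and is counted among those that rose, and without these 16 the counts were 17 up and 9 down of 55, and 9 and 1 of 17 in the V-ATPase.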
